A study of Homo sapiens with 24 samples.

Results

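The genes described here are the expressed ZNF zinc finger genes of human leukaemia cell lines. They are every gene whose symbol is ZNF followed by digits alone and whose mean expression over all 24 libraries was at least 3 RPKM (reads scaled to gene length and to the size of the library). Of 15862 genes listed, 444 carried such a symbol, 264 met the threshold and 180 fell below it. Just inside it were ZNF793 at 3.06 RPKM, ZNF543 at 3.16 RPKM and ZNF234 at 3.16 RPKM, and just outside it were ZNF746 at 2.99 RPKM, ZNF788 at 2.99 RPKM and ZNF839 at 2.98 RPKM. The members were thus chosen by their measured RPKM levels, and that a member was expressed is no result.

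The libraries came from LOUCY and JURKAT, established lines of human T-cell acute lymphoblastic leukaemia. Cells of LOUCY were given JQ1 at 250 nM (4 libraries), I-BET151 at 500 nM (4 libraries) or the solvent DMSO at 0.05% (4 libraries), each for 24 h, or were left untreated (6 libraries). JURKAT cells were left untreated (6 libraries) and received no inhibitor. JQ1 and I-BET151 block the acetyl-lysine pockets of the BET bromodomain proteins. Every group was spread over 2 independent experiments. Each group stands for 1 cell line, and the labels do not say whether replicates within an experiment were separate cultures, so p-values measure the spread between these libraries.

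ZNF proteins bind DNA through C2H2 zinc fingers, short loops that each hold a zinc ion and read a few bases. Most human members also carry a KRAB domain, which recruits TRIM28. TRIM28 in turn brings SETDB1, HP1 proteins and DNA methyltransferases, which silence the bound site. Many KRAB members bind transposable elements such as LINE-1 and SVA, and the genes lie in tandem clusters on chromosome 19. A smaller set without KRAB holds activators, RNA-binding proteins and ribosome assembly factors.

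The 264 members were mostly of the KRAB kind. A KRAB domain was found in the translated transcripts of 188 members and not in 76. Chromosome 19 held 143 members, 130 of them with KRAB, and the next fullest chromosome held 18. The number of C2H2 fingers had a median of 12 in members with KRAB and 7 in the others, and reached 31 in ZNF91, which represses SVA elements. In 14 members no more than 2 fingers were found. A SCAN domain, which pairs zinc finger proteins, was found in 11 members.

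The genes were expressed at low levels. Their median over the 24 libraries was 7.78 RPKM, against 15.0 RPKM for all 8979 genes at the same threshold. Members with KRAB had a median of 6.51 RPKM and those without had 10.0 RPKM. Only 90 members reached 10 RPKM on average. The top 10 were ZNF22 (148 RPKM), ZNF207 (144 RPKM), ZNF330 (74.8 RPKM), ZNF146 (63.5 RPKM), ZNF593 (48.6 RPKM), ZNF706 (45.0 RPKM), ZNF512 (39.4 RPKM), ZNF93 (39.3 RPKM), ZNF410 (39.1 RPKM) and ZNF622 (38.5 RPKM). Of these, only ZNF93 had a KRAB domain. ZNF207 (BuGZ) helps load the checkpoint protein BUB3 at kinetochores, ZNF410 activates CHD4, and ZNF593 and ZNF622 take part in assembly of the large ribosomal subunit, as their yeast relatives do.

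ZNF22 and ZNF207 stood above all other members in every group. ZNF22 averaged 113 ± 12.6 RPKM with JQ1, 129 ± 35.7 RPKM with I-BET151, 153 ± 24.2 RPKM with DMSO, 178 ± 38.6 RPKM in untreated LOUCY and 151 ± 15.5 RPKM in untreated JURKAT (SD; n = 4 with each agent and n = 6 untreated). ZNF207 averaged 141 ± 4.83 RPKM with JQ1, 137 ± 22 RPKM with I-BET151, 150 ± 11.4 RPKM with DMSO, 130 ± 10.8 RPKM in untreated LOUCY and 162 ± 11.7 RPKM in untreated JURKAT. Reads were not assigned by strand. In the annotation ZNF22 overlaps C10orf25 on the other strand, so its level may include reads of that gene, and 55 of the 264 members overlap some listed gene on the other strand.

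Depth was sufficient for most members. Reads in listed genes numbered 4381134 to 7074198 per library, and a member had a median of 145 reads per library. Only 12 members had a median under 50 reads, and 258 of 264 were above 0 in every library. Members took 0.837% to 1.32% of the reads. In 3 libraries, all of experiment 2, genes of high GC content were low relative to those of low GC content, and ZNF transcripts are low in GC (median 42.5%, against 47.9% over 15345 annotated genes). These were DMSO replicate 1, I-BET151 replicate 1 and untreated LOUCY replicate 2, with slopes of -0.279, -0.313 and -0.226 on the log2 scale per 10 points of GC, against -0.124 to 0.155 in the other 21 libraries. Each slope was fitted to the library's deviation from its own group mean, so it is relative to the other libraries of that group. In those 3 libraries the members' median deviation from their group mean was 0.10 to 0.229 on the log2 scale, against -0.144 to 0.104 in the others. Calls of members named by size or role are given with and without these libraries, singly or as counts. Cofactors and neighbours are given with all libraries. The part of this shift in each result was not tested. CD3D, a defining T-cell gene, averaged 751.6 to 1530.7 RPKM in the 5 groups, while CD5 averaged 0.0538 to 0.305 RPKM in the LOUCY groups and 6.6 RPKM in JURKAT. Summed levels of 6 T-lineage markers ran from 989.1 to 1041.3 RPKM with JQ1, 783.2 to 1124.8 RPKM with I-BET151, 1431.4 to 1806.6 RPKM with DMSO, 1710.3 to 2209.4 RPKM in untreated LOUCY and 1130.1 to 1433.5 RPKM in untreated JURKAT. The untreated lines did not overlap in that sum, which CD3D dominated. CD3G and CD7 also averaged more in untreated LOUCY (120 and 90.4 RPKM) than in untreated JURKAT (104 and 9.78 RPKM). CD3E and CD247 went the other way, with 171 and 30.5 RPKM in LOUCY and 200 and 32.6 RPKM in JURKAT, as did CD5. The part of these markers in the differences between the lines was not tested. Of 8 markers of other blood cells 6 were listed. Their sum was dominated by CD79A, a B-lineage gene, and ran from 200.2 to 296.8 RPKM with JQ1, 143.6 to 305.1 RPKM with I-BET151, 261.1 to 498.7 RPKM with DMSO, 334.3 to 591.2 RPKM in untreated LOUCY and 11.5 to 22.8 RPKM in untreated JURKAT. The fibroblast genes COL1A1 and COL1A2 had group means of 0.135 to 0.469 RPKM.

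**Figure D1:**
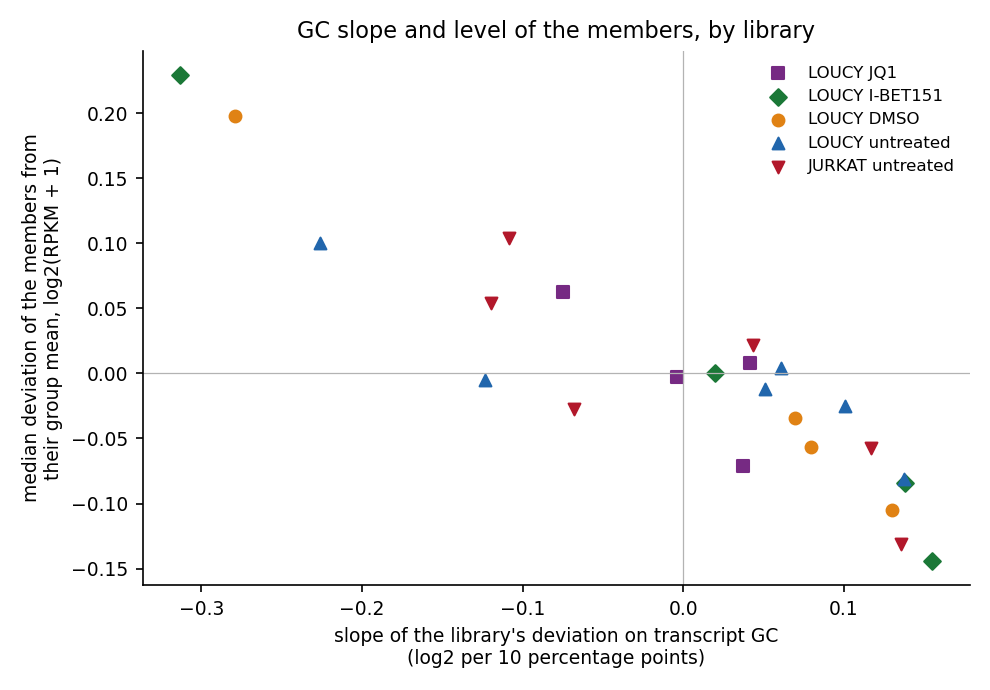
Median deviation of the members from their group mean in each library (vertical axis, log2(RPKM + 1)) against the slope of the library on transcript GC content over all genes (horizontal axis, log2 per 10 points of GC), 1 point per library, marked by group. The 3 libraries with slopes of -0.226 to -0.313 lie at member deviations of 0.10 to 0.229.

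The first comparison asked which ZNF genes separate the lines. Untreated LOUCY and JURKAT differed at 178 of the 264 members, of which 118 were higher and 60 lower in LOUCY (adjusted p under 0.05 in limma on log2(RPKM + 1), adjusted over all genes tested). Members were thus called higher in 44.7% of cases and lower in 22.7%, where all 11978 genes tested were called higher in 35.5% and lower in 37.5%, and the 8979 genes at the same threshold in 37.3% and 34.6%. The median difference of the members was 0.18 on the log2 scale, against -0.02 over all genes and 0.02 over those at the threshold. The rule itself favoured genes high in LOUCY, because 18 of the 24 libraries were LOUCY: a gene at 0 in JURKAT met the threshold at a LOUCY mean of 4 RPKM, while a gene at 0 in LOUCY needed a JURKAT mean of 12 RPKM. With the lines given equal weight, 107 members were higher and 69 lower of 263. Among the 201 members at 3 RPKM or more in both untreated lines, 71 were higher and 46 lower. Without untreated LOUCY replicate 2 of experiment 2, the steep-slope library of this comparison, 110 were higher and 57 lower, and all 31 calls of named members were kept, with shifts of up to 0.12. Within experiment 1 alone 88 were higher and 45 lower, within experiment 2 alone 63 were higher and 44 lower, and no member's difference passed a test of change between experiments (limma, 21 members at an unadjusted p under 0.05). After centring each library on its median, 99 were higher and 69 lower. With limma voom on the recovered reads 100 were higher and 71 lower, where the median of all genes moved to -0.12. Shares of all genes called in these other settings are not given here. The counts in them therefore do not show whether the members' excess of higher genes goes beyond that of genes at large.

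A few members were on in 1 line and near 0 in the other. The promoters of 4 of them are shown, ZNF93, ZNF528 and ZNF544 from the genes on in LOUCY and ZNF302 from the single reverse case, together with that of ZNF766, a gene of the same cluster as ZNF528, expressed in both lines and picked after its values were seen. Each is the 250 bases before the start listed by RefSeq on GRCh38.p14, plus strand, with CG dinucleotides, the sites of DNA methylation, in capitals. They lie at chr19:19900696-19900945 (ZNF93), chr19:52397599-52397848 (ZNF528), chr19:58228664-58228913 (ZNF544), chr19:34677428-34677677 (ZNF302) and chr19:52269337-52269586 (ZNF766).
ZNF93: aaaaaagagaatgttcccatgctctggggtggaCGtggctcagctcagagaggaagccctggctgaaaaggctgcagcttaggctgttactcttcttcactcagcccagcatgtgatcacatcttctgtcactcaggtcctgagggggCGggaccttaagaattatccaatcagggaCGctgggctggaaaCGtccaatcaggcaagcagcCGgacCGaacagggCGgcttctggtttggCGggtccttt
ZNF528: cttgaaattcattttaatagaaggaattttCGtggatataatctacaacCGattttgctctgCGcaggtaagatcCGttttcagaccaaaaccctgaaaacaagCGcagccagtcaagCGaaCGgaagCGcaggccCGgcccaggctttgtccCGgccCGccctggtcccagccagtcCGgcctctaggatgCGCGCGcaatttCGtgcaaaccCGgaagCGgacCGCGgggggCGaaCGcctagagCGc
ZNF544: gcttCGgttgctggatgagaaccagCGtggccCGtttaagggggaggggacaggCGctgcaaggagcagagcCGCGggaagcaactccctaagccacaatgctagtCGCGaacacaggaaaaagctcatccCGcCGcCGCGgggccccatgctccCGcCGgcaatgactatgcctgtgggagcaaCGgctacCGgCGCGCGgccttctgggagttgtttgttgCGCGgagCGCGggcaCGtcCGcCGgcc
ZNF302: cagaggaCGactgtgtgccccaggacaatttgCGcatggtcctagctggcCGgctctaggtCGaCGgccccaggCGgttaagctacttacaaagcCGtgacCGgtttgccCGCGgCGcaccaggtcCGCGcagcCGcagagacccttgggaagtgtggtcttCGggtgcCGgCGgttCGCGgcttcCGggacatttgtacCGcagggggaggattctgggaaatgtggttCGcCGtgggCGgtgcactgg
ZNF766: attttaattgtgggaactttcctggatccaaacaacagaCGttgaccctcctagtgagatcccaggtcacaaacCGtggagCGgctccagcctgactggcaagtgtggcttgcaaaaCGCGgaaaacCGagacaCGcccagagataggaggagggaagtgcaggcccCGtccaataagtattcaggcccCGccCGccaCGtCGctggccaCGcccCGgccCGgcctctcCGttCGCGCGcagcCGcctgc
The windows held 8 CG dinucleotides in ZNF93, 23 in ZNF528, 26 in ZNF544, 24 in ZNF302 and 20 in ZNF766.

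RefSeq listed 295 starts for 235 of the 264 members, each with 250 bases before and 50 after the start. Of those windows 78.6% were CpG-rich (observed over expected CpG of at least 0.6 and GC of at least 50%). The share was 77.7% in 9935 windows of all genes at the same threshold and 46.9% in all 35116 windows listed. Members under 0.5 RPKM in untreated JURKAT had 14 windows in 12 genes, and 57.1% of these were CpG-rich. Their median was 16.5 CG dinucleotides, against 22 in all members' windows, and the difference was not tested. The letters CCGGAAG, the core bound by ETS factors, were found on either strand in 38.6% of members' windows, against 19.6% of windows of genes at the threshold and 10.3% of all. The letters GCGCATGCG, the NRF1 core, were found in 4.75%, against 3.63% and 1.92%. The letters ACTACAATT, part of the site of ZNF143, were found in 2.37%, against 0.644% and 0.336%. Within the 250 bases printed above, CCGGAAG or its reverse complement was found in ZNF528 and ZNF302. In the windows of ZNF544 and ZNF766 the match lay outside the printed stretch, and in that of ZNF93 there was none. No letters of these searches overlap one another, and a match describes the window only.

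ZNF93, a KRAB protein that represses LINE-1 elements, had the widest difference between the lines. It ranged from 44.9 to 65.1 RPKM in untreated LOUCY (median 55.5) and from 0.288 to 0.609 RPKM in untreated JURKAT (median 0.436). Every LOUCY library was far above every JURKAT library. Means were 55.9 ± 7.29 RPKM in LOUCY and 0.433 ± 0.123 RPKM in JURKAT (SD, n = 6 each), a difference of 5.31 on the log2(RPKM + 1) scale (SE 0.09, limma adjusted p = 1.77e-16). ZNF93 lies at chr19:19900913-19963464 on the plus strand (hg38), and its annotated start coordinate is 35.0 kb past that of ZNF253, which showed the same pattern. ZNF253 ranged from 18.9 to 35.3 RPKM in LOUCY (median 21.9) and from 0.146 to 0.950 RPKM in JURKAT (median 0.315), a difference of 4.12 (SE 0.14, adjusted p = 5.02e-13). The next member, ZNF682, averaged 11.2 ± 3.05 RPKM in LOUCY and 2.75 ± 1.02 RPKM in JURKAT.

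ZNF683 (Hobit), a factor of resident and effector lymphocytes that has no KRAB domain, was next. It ranged from 28.4 to 38.3 RPKM in untreated LOUCY (median 34.6) and from 0 to 0.197 RPKM in untreated JURKAT (median 0.0491), and the lines did not overlap. Means were 33.8 ± 3.50 RPKM in LOUCY and 0.0698 ± 0.0830 RPKM in JURKAT (SD, n = 6 each), a difference of 5.02 (SE 0.09, adjusted p = 5.24e-16). ZNF683 lies at chr1:26361634-26374522 on the minus strand.

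ZNF544 and ZNF528, both with KRAB, were likewise on in LOUCY alone of the 2 lines. ZNF544 ranged from 17.3 to 25.8 RPKM in LOUCY (median 21.8) and from 0.172 to 0.485 RPKM in JURKAT (median 0.281), a difference of 4.09 (SE 0.10, adjusted p = 1.55e-14). ZNF528 ranged from 8.11 to 9.76 RPKM in LOUCY (median 8.93) and from 0.0506 to 0.271 RPKM in JURKAT (median 0.0856), a difference of 3.16 (SE 0.08, adjusted p = 2.64e-14). The other 3 of the 8 largest differences upward were ZNF600 (8.67 ± 1.63 RPKM in LOUCY, 0.174 ± 0.137 RPKM in JURKAT), ZNF415 (6.16 ± 1.07 RPKM in LOUCY, 0.20 ± 0.247 RPKM in JURKAT) and ZNF827 (10.8 ± 1.51 RPKM in LOUCY, 0.995 ± 0.272 RPKM in JURKAT). ZNF827 recruits the NuRD complex to telomeres. ZNF415 overlaps ZNF347 on the same strand, so reads may be shared between them.

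In all, 15 members averaged under 0.5 RPKM in untreated JURKAT. They were ZNF93, ZNF253, ZNF544, ZNF528, ZNF600, ZNF415 and ZNF683 together with ZNF215, ZNF768, ZNF90, ZNF793, ZNF234, ZNF649, ZNF620 and ZNF660. Of the 15, 10 lie on chromosome 19 and 12 have KRAB, where 143 of all 264 members lie on chromosome 19 and 188 have KRAB. The rule again bears on this count. Over all 444 ZNF genes, 21 averaged at least 3 RPKM in untreated LOUCY and under 0.5 RPKM in untreated JURKAT. The reverse was found for 3 (ZNF302, ZNF268 and ZNF595). The same counts over all genes are not given here, so no trait of ZNF genes is read from them.

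ZNF302, a KRAB gene, was the only member under 0.5 RPKM in untreated LOUCY. It ranged from 0.111 to 0.444 RPKM in LOUCY (median 0.178) and from 7.80 to 18.3 RPKM in JURKAT (median 11.4), with no overlap between the lines. Means were 0.225 ± 0.127 RPKM in LOUCY and 12.3 ± 3.87 RPKM in JURKAT (SD, n = 6 each), a difference of -3.40 (SE 0.14, adjusted p = 5.60e-12). ZNF302 lies at chr19:34677639-34686397 on the plus strand, and its neighbour ZNF181, whose start coordinate is 56.5 kb further on, averaged 7.47 ± 3.52 RPKM in LOUCY and 11 ± 3.66 RPKM in JURKAT (-0.55, adjusted p = 0.0209).

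The other 7 largest differences downward were smaller. ZNF32 ranged from 14.6 to 27.0 RPKM in LOUCY (median 23.4) and from 58.1 to 78.6 RPKM in JURKAT (median 67.7), a difference of -1.61 (adjusted p = 4.30e-08). It was expressed in both lines, and every JURKAT library exceeded every LOUCY library. ZNF589 (SZF1), a KRAB protein first described in blood progenitors, ranged from 3.76 to 6.40 RPKM in LOUCY (median 5.58) and from 11.1 to 16.1 RPKM in JURKAT (median 14.1), a difference of -1.26 (adjusted p = 1.28e-08). Differences of -1.20 to -1.32 were also found for ZNF581, ZNF232, ZNF346, ZNF584 and ZNF57. ZNF346, which binds double-stranded RNA, averaged 2.57 ± 0.456 RPKM in LOUCY and 7.77 ± 1.23 RPKM in JURKAT. Other genes lie on the opposite strand within ZNF32 (ZNF32-AS1), ZNF232 (USP6) and ZNF589 (NME6), and ZNF581 overlaps ZNF580 on its own strand.

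**Figure D2:**
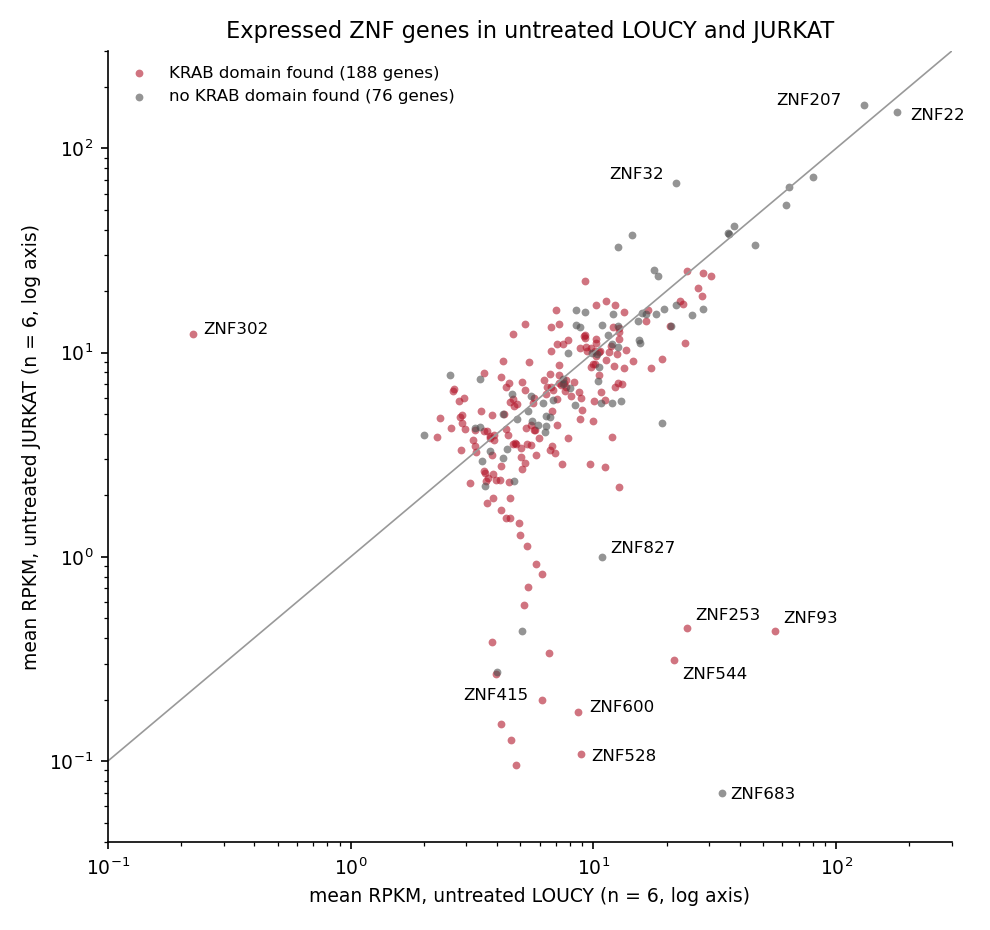
Mean level of each member in untreated LOUCY against untreated JURKAT (RPKM, log axes), 1 point per gene coloured by KRAB domain, with the line of equal levels and the most different and most abundant members labelled. ZNF93, ZNF253, ZNF544 and ZNF683 lie far to the LOUCY side and ZNF302 to the JURKAT side.

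**Figure D3:**
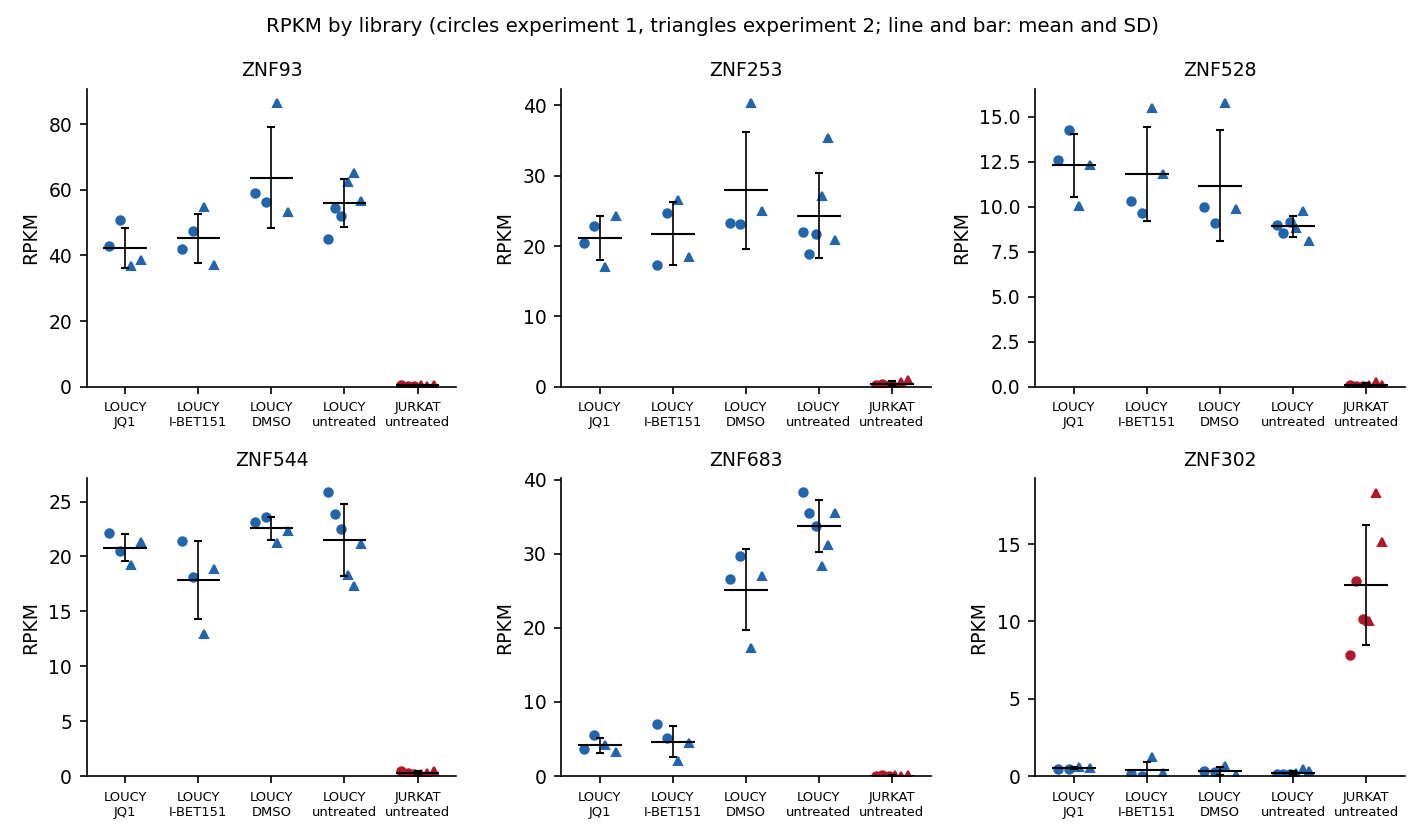
Level (RPKM) of ZNF93, ZNF253, ZNF528, ZNF544, ZNF683 and ZNF302 in each of the 24 libraries by group, circles for experiment 1 and triangles for experiment 2, with the mean as a line and the SD as a bar. ZNF93 lies between 44.9 and 65.1 RPKM in untreated LOUCY and between 0.288 and 0.609 RPKM in untreated JURKAT.

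Members are given here by kind, where 35.5% of all genes tested were higher in LOUCY and 37.5% lower. Of 188 members with KRAB, 92 were higher (48.9%) and 41 lower (21.8%). Of 76 without KRAB 26 were higher (34.2%), near the share of all genes, and 19 lower (25.0%). On chromosome 19, 70 of 143 were higher (49.0%) and 26 lower (18.2%). Elsewhere 48 of 121 were higher (39.7%) and 34 lower (28.1%). Of 11 members with SCAN, 5 were higher and 5 lower. By finger number, 34 of 86 members with up to 8 fingers were higher (39.5%) and 23 lower (26.7%). Of 103 with 9 to 13 fingers, 49 were higher (47.6%) and 23 lower (22.3%). Of 75 with 14 or more, 35 were higher (46.7%) and 14 lower (18.7%). These classes were not tested against each other, and KRAB, chromosome 19 and finger number go together.

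Along chromosome 19, 133 members fell into 7 clusters (gaps of at most 1000000 bases and at least 5 members). Over all genes tested 35.5% were higher in LOUCY and 37.5% lower, and the clusters were not tested against that share. In the cluster at chr19:51571298-53580269, from ZNF175 to ZNF331, 20 of 29 members were higher in LOUCY and 1 was lower. In the cluster at chr19:19668796-24129961, from ZNF101 to ZNF254, 13 of 22 were higher and 3 lower, and in that at chr19:11559374-12640098, from ZNF627 to ZNF791, 9 of 14 were higher and 1 lower. The cluster nearest the long arm's end, chr19:55476332-58481230, was more even, with 13 of 33 higher and 10 lower. The other 3 clusters had 4 higher and 3 lower of 9 (chr19:7069444-9793180), 5 higher and 1 lower of 16 (chr19:36182060-37817300) and 5 higher and 1 lower of 10 (chr19:43525497-44500524).

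Clusters were not uniform. Between ZNF175 and ZNF331, ZNF528 was near 0 in JURKAT while ZNF766 averaged 28.2 ± 1.67 RPKM in LOUCY and 24.4 ± 2.89 RPKM in JURKAT, and ZNF480 averaged 24.2 ± 3.78 RPKM in LOUCY and 25.0 ± 5.09 RPKM in JURKAT (-0.03, adjusted p = 0.805). ZNF610, with a start coordinate 61.6 kb before that of ZNF528, averaged 3.53 ± 1.00 RPKM in LOUCY and 2.62 ± 0.502 RPKM in JURKAT (0.30, adjusted p = 0.0442). Both neighbours of ZNF600 were expressed in both lines: ZNF611 averaged 6.62 ± 0.567 RPKM in LOUCY and 3.33 ± 0.494 RPKM in JURKAT, and ZNF28 averaged 12.7 ± 2.99 RPKM in LOUCY and 7.06 ± 2.36 RPKM in JURKAT. ZNF274, with a start coordinate 45.6 kb before that of ZNF544, averaged 8.96 ± 1.54 RPKM in LOUCY and 5.26 ± 0.886 RPKM in JURKAT. ZNF528, ZNF600 and ZNF544 were thus near 0 in JURKAT while these neighbours were not. The neighbours were taken from the members alone, which the rule chose as expressed, so genes below the threshold were passed over. ZNF253 and ZNF93, by contrast, were adjacent members and both near 0 in JURKAT.

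**Figure D4:**
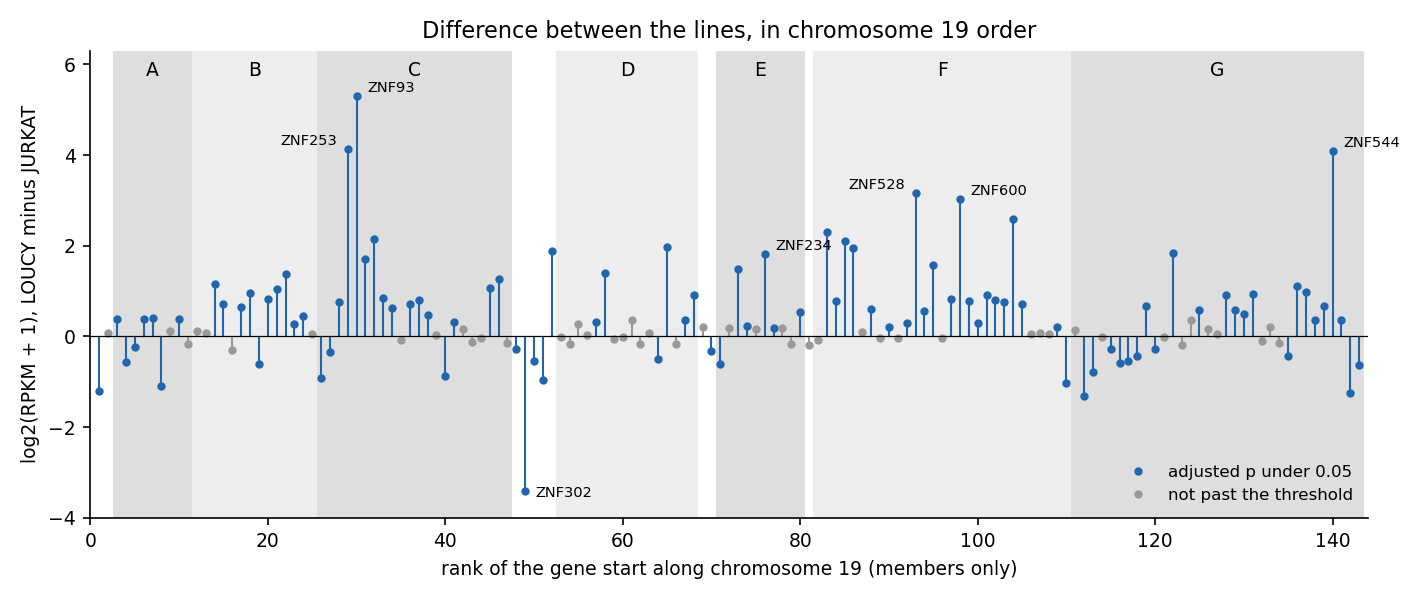
Difference between untreated LOUCY and untreated JURKAT (log2(RPKM + 1), vertical axis) for each chromosome 19 member in gene order (horizontal axis, rank along the chromosome), blue where called and grey otherwise, with the 7 clusters shaded and lettered A to G. ZNF93 and ZNF253 stand side by side at 5.31 and 4.12, ZNF544 stands at 4.09 and ZNF302 at -3.40.

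Of 25 ZNF genes picked for a known role, 23 were members, and 10 of these were higher and 6 lower in LOUCY, where 35.5% of all genes tested were higher and 37.5% lower. The higher ones were ZNF24, ZNF281, ZNF638, ZNF326, ZNF687, ZNF274, ZNF292, ZNF384, ZNF395 and ZNF683. ZNF274, which recruits SETDB1 to the ends of other ZNF genes, differed by 0.67 (8.96 RPKM in LOUCY, 5.26 RPKM in JURKAT, adjusted p = 0.000262). ZNF384, a fusion partner in B-cell leukaemia, differed by 0.72 (28.1 ± 6.98 RPKM in LOUCY, 16.3 ± 2.15 RPKM in JURKAT). ZNF395 differed by 1.85 (19.1 ± 2.83 RPKM in LOUCY, 4.54 ± 0.348 RPKM in JURKAT). The lower ones were ZNF331, ZNF263, ZNF521, ZNF335, ZNF207 and ZNF148. ZNF331, an imprinted gene, averaged 2.64 ± 0.359 RPKM in LOUCY and 6.46 ± 0.637 RPKM in JURKAT (-1.04). ZNF521, a multi-finger cofactor of blood progenitors that inhibits EBF1, averaged 8.52 ± 0.807 RPKM in LOUCY and 16.2 ± 4.95 RPKM in JURKAT (-0.80). ZNF91 averaged 10.3 ± 3.08 RPKM in LOUCY and 11.2 ± 2.55 RPKM in JURKAT, and did not pass the test (-0.13, adjusted p = 0.368), nor did ZNF512, ZNF410, ZNF622, ZNF217, ZNF143 and ZNF593. The calls of ZNF24 and ZNF281 were lost with median centring and with limma voom. In experiment 2 alone those of ZNF148, ZNF274, ZNF326, ZNF687, ZNF24 and ZNF281 were lost, and in experiment 1 alone those of ZNF335 and ZNF24.

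For cofactors of KRAB proteins in the TRIM28 pathway 27 symbols were searched and 26 were found. The other, TASOR, is a second name of FAM208A, which was found. Of the 26 cofactors, 15 were higher (57.7%) and 6 lower (23.1%) in LOUCY, where 35.5% of all genes tested were higher and 37.5% lower. TRIM28 averaged 79.9 ± 12.7 RPKM in LOUCY and 101 ± 21.9 RPKM in JURKAT (-0.33, adjusted p = 0.00328), and SETDB1 averaged 12.9 ± 2.20 RPKM in LOUCY and 7.14 ± 1.36 RPKM in JURKAT (0.78, adjusted p = 1.42e-05). DNMT3B, which methylates DNA anew, averaged 29.2 ± 4.06 RPKM in LOUCY and 1.21 ± 0.279 RPKM in JURKAT (3.77, adjusted p = 1.17e-13). ATF7IP, the partner of SETDB1, was higher in LOUCY (21.1 RPKM, against 4.95 RPKM in JURKAT, a difference of 1.90), while its relative ATF7IP2 was lower (2.02 RPKM, against 7.47 RPKM in JURKAT, -1.48). Among zinc finger genes of other names at the same threshold, LOUCY was higher for 3 and lower for 5 of 20 ZBTB genes, 1 and 1 of 5 ZKSCAN genes, 2 and 1 of 7 ZSCAN genes, and 2 and 3 of 8 ZFP genes.

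The solvent alone moved no member past the test. Of 263 members tested in the LOUCY libraries, 0 were called between DMSO and untreated cells (limma, 31 at an unadjusted p under 0.05, and 0 called with limma voom), where 20 of all 11411 genes tested were called (0.175%). Of those 11411 genes, 1100 had an unadjusted p under 0.05 in limma. ZNF302 was not tested in LOUCY because it did not pass the filter of 1 RPKM in 4 libraries. The members' median difference was 0.11 on the log2 scale, against -0.02 over all genes. Leaving out the 3 steep-slope libraries gave 0.07. The median was 0.14 for members with KRAB and 0.03 for those without, and 202 of the 263 differences were above 0. The count above 0 over all genes is not given here, so no trait of the members is read from it. The 2 members with the smallest p were ZNF395, at 13.9 ± 2.03 RPKM with DMSO and 19.1 ± 2.83 RPKM untreated (-0.43, adjusted p = 0.145), and ZNF426, at 9.83 ± 0.689 RPKM with DMSO and 7.03 ± 1.21 RPKM untreated (0.44, adjusted p = 0.162).

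Over all libraries, the BET inhibitors lowered more members than they raised, in a small share of the set. With JQ1, 8 of 263 members rose (3.04%) and 27 fell (10.3%) relative to DMSO, where all genes rose in 10.1% and fell in 15.9% of cases, and genes at the same threshold in 10.5% and 16.0%. With I-BET151, 8 rose (3.04%) and 28 fell (10.6%), where all genes rose in 10.3% and fell in 15.9% of cases, and genes at the threshold in 10.7% and 16.1%. Members were called less often than genes at large in both directions, without a test of that difference. Median differences were -0.04 with JQ1 and -0.02 with I-BET151, against -0.01 and 0.00 over all genes. All called members had the same sign in both experiments, which a call from the fit over both makes likely in advance. No member's response passed a test of change between experiments (limma, 14 members with JQ1 and 5 with I-BET151 at an unadjusted p under 0.05). The inhibitors were set against the same DMSO libraries, so their calls are not independent of each other.

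These counts depended on the libraries. When the 3 steep-slope libraries were left out, 28 members rose (10.6%) and 26 fell (9.89%) with JQ1, so that more rose than fell, and the members' median turned to 0.03. In the same setting all genes were called more often as well, 15.1% higher and 21.2% lower. With I-BET151, 11 members rose (4.18%) and 26 fell (9.89%), where all genes rose in 11.8% and fell in 17.98% of cases. Of the JQ1 calls 30 were shared by both settings, and of the I-BET151 calls 28. With limma voom on the recovered reads, 10 rose and 18 fell with JQ1, and 10 rose and 28 fell with I-BET151. Within experiment 1 alone, 25 rose and 23 fell with JQ1 (median 0.04) and 9 rose and 24 fell with I-BET151. Within experiment 2 alone, where 1 of 2 DMSO libraries had a steep slope, 0 rose and 2 fell with JQ1, and 0 rose and 4 fell with I-BET151. Shares of all genes called with limma voom and in each experiment alone are not given here. Those counts are therefore not read against genes at large. By kind, over all libraries, 6 of 187 members with KRAB rose (3.21%) and 16 fell (8.56%) with JQ1. Without KRAB 2 of 76 rose (2.63%) and 11 fell (14.5%). With I-BET151 7 of 187 with KRAB rose (3.74%) and 19 fell (10.2%), and 1 of 76 without rose (1.32%) and 9 fell (11.8%). Over all genes 10.1% rose and 15.9% fell with JQ1, and 10.3% rose and 15.9% fell with I-BET151.

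ZNF683 fell most. Its levels with JQ1 were 3.59 and 5.54 RPKM in experiment 1 and 4.20 and 3.23 RPKM in experiment 2. With I-BET151 they were 6.97, 5.08, 1.99 and 4.52 RPKM in the same order, and with DMSO 26.6, 29.7, 17.2 and 27.1 RPKM. Every treated library lay well below every DMSO library. The difference was -2.34 with JQ1 (SE 0.19, limma adjusted p = 6.59e-08) and -2.27 with I-BET151 (SE 0.19, adjusted p = 9.52e-08). Treated levels averaged 4.14 ± 1.02 RPKM with JQ1 and 4.64 ± 2.05 RPKM with I-BET151 (SD, n = 4 each), above the 0.0698 RPKM of untreated JURKAT. Without the steep-slope libraries the differences were -2.47 and -2.16. T-lineage marker sums also lay below those with DMSO, as given above, and their part in the result was not tested.

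ZNF485 and ZNF771 followed. ZNF485, a KRAB gene, had 3.60, 2.80, 1.54 and 1.05 RPKM with JQ1, 1.69, 1.71, 1.34 and 1.80 RPKM with I-BET151, and 5.38, 5.57, 5.88 and 5.45 RPKM with DMSO. No treated library reached the lowest DMSO library, and the JQ1 libraries of experiment 1 were the highest of the treated ones. Differences were -1.09 with JQ1 (SE 0.21, adjusted p = 0.000883) and -1.32 with I-BET151 (SE 0.21, adjusted p = 0.000152). ZNF771, without KRAB, had 9.49, 5.94, 6.80 and 6.37 RPKM with JQ1, 8.30, 5.51, 4.62 and 4.67 RPKM with I-BET151, and 19.99, 14, 11.2 and 16.9 RPKM with DMSO. Groups did not overlap, and differences were -1.01 with JQ1 (adjusted p = 0.000335) and -1.29 with I-BET151 (adjusted p = 3.07e-05). Without the steep-slope libraries ZNF485 differed by -1.06 and -1.24, and ZNF771 by -1.10 and -1.35. ZNF771 overlaps DCTPP1 on the other strand.

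ZNF593, the ribosome assembly factor, fell with both agents. It had 31.2, 30.2, 32.8 and 35.2 RPKM with JQ1, 39.7, 29.8, 24.7 and 39.4 RPKM with I-BET151, and 55.9, 58.6, 42.3 and 58.1 RPKM with DMSO. The treated libraries all lay below the lowest DMSO library, which was the one of steep GC slope. Differences were -0.71 with JQ1 (adjusted p = 0.00598) and -0.68 with I-BET151 (adjusted p = 0.00754), and without the steep-slope libraries -0.81 (adjusted p = 0.000291) and -0.66 (adjusted p = 0.00319). ZNF622, which acts in the same assembly path, did not pass the test, at 42.0 ± 4.17 RPKM with JQ1, 40.8 ± 7.51 RPKM with I-BET151 and 36.7 ± 4.55 RPKM with DMSO.

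ZNF521, the EBF1 inhibitor, also fell. It had 5.24, 4.25, 3.87 and 4.81 RPKM with JQ1, 3.09, 4.01, 4.50 and 3.85 RPKM with I-BET151, and 6.59, 7.84, 7.89 and 8.79 RPKM with DMSO, with no overlap. Differences were -0.66 with JQ1 (adjusted p = 0.000583) and -0.85 with I-BET151 (adjusted p = 5.51e-05), and -0.65 and -0.91 without the steep-slope libraries. Of the 23 members with a known role, ZNF593, ZNF521 and ZNF683 were the only ones to fall with JQ1, and 0 rose (limma, adjusted p under 0.05). Over all genes 15.9% fell and 10.1% rose with JQ1. With I-BET151 the same 3 fell and ZNF217, a corepressor component amplified in cancers, rose, where 15.9% of all genes fell and 10.3% rose.

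The remaining large falls were ZNF573, ZNF343, ZNF692, ZNF32 and, with I-BET151, ZNF426. ZNF692 had 9.63, 7.33, 8.69 and 7.68 RPKM with JQ1, 8.06, 8.29, 5.42 and 9.25 RPKM with I-BET151, and 17.7, 19.2, 9.83 and 17.5 RPKM with DMSO. The lowest DMSO library, again that of steep GC slope, lay just above the highest treated ones, and differences were -0.84 with JQ1 (adjusted p = 0.00136) and -0.94 with I-BET151 (adjusted p = 0.000476). ZNF32, already lower in LOUCY than in JURKAT, had 11.1, 9.61, 13.6 and 12.5 RPKM with JQ1, 11.9, 11.3, 8.35 and 12.6 RPKM with I-BET151, and 21.3, 22.3, 15.4 and 21.2 RPKM with DMSO (-0.73 and -0.81). ZNF343 averaged 1.65 ± 0.381 RPKM with JQ1, 1.91 ± 0.207 RPKM with I-BET151 and 3.93 ± 0.929 RPKM with DMSO (-0.88 and -0.74). ZNF573 averaged 4.83 ± 0.994 RPKM with JQ1, 4.66 ± 2.22 RPKM with I-BET151 and 10.3 ± 3.27 RPKM with DMSO (-0.92 and -1.03), while untreated LOUCY averaged 6.95 ± 0.841 RPKM. ZNF426 averaged 6.86 ± 0.339 RPKM with JQ1, 5.15 ± 1.04 RPKM with I-BET151 and 9.83 ± 0.689 RPKM with DMSO (-0.46 and -0.83). All 5 passed with both agents without the steep-slope libraries, ZNF692 at -1.05 and -1.01, ZNF32 at -0.84 and -0.81, ZNF343 at -1.04 and -0.85, ZNF573 at -0.72 and -1.08, and ZNF426 at -0.44 and -0.69.

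ZNF93 was among the smaller falls. It had 42.9, 50.8, 36.8 and 38.6 RPKM with JQ1, 42.0, 47.4, 54.6 and 37.2 RPKM with I-BET151, and 59.0, 56.4, 86.4 and 53.1 RPKM with DMSO. The DMSO library at 86.4 RPKM was that of steep GC slope, and 1 I-BET151 library exceeded the lowest DMSO library. Differences were -0.56 with JQ1 (adjusted p = 0.0123) and -0.47 with I-BET151 (adjusted p = 0.0337), while leaving out the steep-slope libraries gave -0.40 (adjusted p = 0.0165) and -0.41 (adjusted p = 0.0233). The lowest treated library, at 36.8 RPKM, was far above every JURKAT library. ZNF253, its neighbour, averaged 21.1 ± 3.17 RPKM with JQ1, 21.8 ± 4.50 RPKM with I-BET151 and 27.9 ± 8.31 RPKM with DMSO and did not pass the test.

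ZNF589 rose with both agents. It had 10.5, 9.36, 9.04 and 9.54 RPKM with JQ1, 8.54, 8.72, 7.22 and 9.43 RPKM with I-BET151, and 5.66, 6.17, 4.48 and 6.61 RPKM with DMSO. Every treated library was above every DMSO library. Differences were 0.66 with JQ1 (SE 0.13, adjusted p = 0.0012) and 0.50 with I-BET151 (SE 0.13, adjusted p = 0.0102), so the gene rose towards the 13.8 ± 1.76 RPKM of untreated JURKAT without reaching it. ZNF610 had 5.39, 6.45, 7.21 and 6.78 RPKM with JQ1, 4.45, 5.01, 3.98 and 5.10 RPKM with I-BET151, and 3.27, 3.42, 5.20 and 3.45 RPKM with DMSO. It passed the test with JQ1 (0.64, adjusted p = 0.00286) and not with I-BET151 (0.23, adjusted p = 0.252), and that contrast between agents is not itself a called difference. ZNF445, which keeps imprints methylated, averaged 7.89 ± 0.953 RPKM with JQ1, 7.07 ± 0.947 RPKM with I-BET151 and 5.55 ± 0.135 RPKM with DMSO (0.43, adjusted p = 0.00665, and 0.29, adjusted p = 0.0558).

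The other rises were less firm. With JQ1 they were ZNF524 (0.61), ZNF397 (0.52), ZNF18 (0.49), ZNF701 (0.48) and ZNF160 (0.43), and with I-BET151 ZNF680 (0.64), ZNF557 (0.54), ZNF701 (0.53), ZNF684 (0.48), ZNF217 (0.47), ZNF2 (0.47) and ZNF18 (0.43). For ZNF557, ZNF680, ZNF684, ZNF217 and ZNF701 the highest I-BET151 library was the one of steep GC slope, at 20.7, 16.4, 11.2, 9.32 and 10.2 RPKM. Among the members named for either agent, 17 of 18 calls with JQ1 and 16 of 18 with I-BET151 were kept without the steep-slope libraries. The JQ1 call of ZNF524 was lost (0.44, adjusted p = 0.0839), and with I-BET151 ZNF217 differed by 0.24 (adjusted p = 0.206) and ZNF684 by 0.32 (adjusted p = 0.192), while ZNF557 (0.45, adjusted p = 0.0142), ZNF680 (0.49, adjusted p = 0.0281) and ZNF701 (0.53, adjusted p = 0.00792) passed.

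Several of these calls lay near the threshold and were lost when 1 library was left out, while the differences kept their sign and ran from 0.32 to 0.65. With JQ1, ZNF160 was lost without DMSO replicate 1 or 2 of experiment 1 (adjusted p = 0.0622 and 0.0771) and ZNF397 without JQ1 replicate 2 of experiment 1 or DMSO replicate 2 of experiment 2 (0.0554 and 0.0704). ZNF18 was lost without DMSO replicate 1 or JQ1 replicate 1 of experiment 1 or DMSO replicate 2 of experiment 2 (0.0505, 0.0594 and 0.0567). ZNF701 was lost without DMSO replicate 1 or JQ1 replicate 2 of experiment 1 or DMSO replicate 2 of experiment 2 (0.0771, 0.0852 and 0.0757). ZNF524 was lost without any 1 of 11 libraries, with an adjusted p of up to 0.152. With I-BET151, ZNF2 was lost without DMSO replicate 1 or 2 or I-BET151 replicate 2 of experiment 1, or I-BET151 replicate 2 of experiment 2 (0.10, 0.0551, 0.0609 and 0.0578). ZNF18 was lost without DMSO replicate 1 or I-BET151 replicate 1 or 2 of experiment 1, or DMSO replicate 2 of experiment 2 (0.0893, 0.0719, 0.0974 and 0.110). ZNF217 was lost without DMSO replicate 2 of experiment 1, or DMSO replicate 1 or I-BET151 replicate 1 of experiment 2 (0.0615, 0.0895 and 0.101), and ZNF680 without I-BET151 replicate 2 of experiment 1, or DMSO replicate 2 or I-BET151 replicate 1 of experiment 2 (0.0666, 0.0631 and 0.0697). ZNF684 was lost without DMSO replicate 1 or I-BET151 replicate 2 of experiment 1, or DMSO replicate 1, DMSO replicate 2 or I-BET151 replicate 1 of experiment 2 (0.0809, 0.113, 0.0966, 0.0631 and 0.111).

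**Figure D5:**
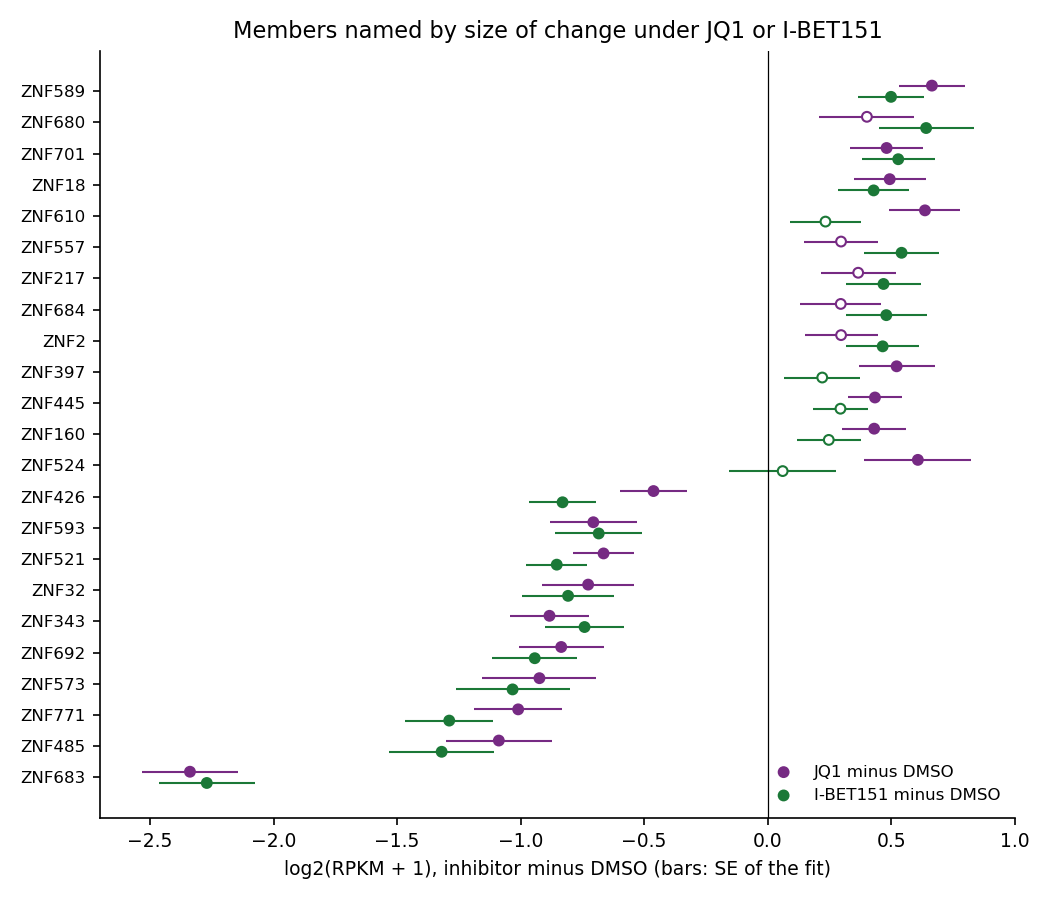
Difference from DMSO (log2(RPKM + 1), horizontal axis) of the named members with JQ1 and with I-BET151, points with bars for the standard error, filled where the adjusted p was under 0.05 and open otherwise. ZNF683 lies at -2.34 with JQ1 and -2.27 with I-BET151, and ZNF589 at 0.66 and 0.50.

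JQ1 and I-BET151, compounds of different chemical scaffolds, were given at different doses (250 nM and 500 nM), so their values stand side by side. Between them 0 members passed the test (limma, 11 at an unadjusted p under 0.05, and 0 called with limma voom), as did 0 of all 11411 genes (0.0%, 531 at an unadjusted p under 0.05). Members' differences ran from -0.42 to 0.55. This does not show that the agents act alike.

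Of the 26 cofactors, 3 rose with JQ1 (CBX1, CBX5 and MPHOSPH8, 11.5%) and 2 fell (DNMT3A and DNMT3B, 7.69%), where all genes rose in 10.1% and fell in 15.9% of cases. With I-BET151, 2 rose (CBX5 and TRIM33, 7.69%) and 3 fell (CHD3, DNMT3A and DNMT3B, 11.5%), where all genes rose in 10.3% and fell in 15.9% of cases. DNMT3B averaged 17.9 RPKM with JQ1, 16.9 RPKM with I-BET151 and 32.5 RPKM with DMSO, a difference of -0.82 (adjusted p = 2.23e-05) and -0.91 (adjusted p = 8.14e-06). DNMT3A averaged 13.6, 13.3 and 23.5 RPKM in the same order (-0.74 and -0.78). CBX5, an HP1 protein, averaged 26.2, 25.4 and 20.3 RPKM (0.35, limma adjusted p = 0.0229, and 0.31, adjusted p = 0.0430). The limma adjusted p was 0.0296 for CBX1 and 0.0435 for MPHOSPH8 with JQ1. With I-BET151 it was 0.0446 for TRIM33 and 0.000785 for CHD3. Values of cofactors without the steep-slope libraries are not given here. TRIM28 averaged 95.0 RPKM with JQ1, 99.6 RPKM with I-BET151 and 76.7 RPKM with DMSO and did not pass the test (0.34, adjusted p = 0.123, and 0.39, adjusted p = 0.0761), and SETDB1, at 11.1, 11 and 12.3 RPKM, did not pass it either.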

How the data were processed

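Polyadenylated RNA of 24 libraries was made into cDNA with Smart-seq2 and Nextera XT, which do not mark strand, per the labels' protocols. The submitters' processing notes name STAR 2.5.1b, Subread 1.4.5-p1 with featureCounts, edgeR 3.10.5 and hg38, without role. The authors deposited 1 table of RPKM values. The sources used here do not state how library sizes and gene lengths were set. Values were whole multiples of 1 read in 100% of genes (tolerance 0.01 reads), which gave the reads per library. In all 18 replicate pairs within a group and experiment the reads differed by more than sampling noise (chi-square per degree of freedom 1.64 to 46.7).

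Differences were tested with limma 3.58.1 (R 4.3.3; trend) on log2(RPKM + 1), for genes reaching 1 RPKM in no fewer than 4 of the fitted libraries, with experiment as a term. The 12 untreated libraries formed 1 fit and the 18 LOUCY libraries another. P-values were Benjamini-Hochberg adjusted over all genes tested, and calls were at 0.05. The added 1 understates differences of low genes. The fits were tested on simulated data.

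The members, gene lists and rules were chosen with earlier results of these data known. Named members were the 8 largest calls each way per comparison with the same sign in both experiments, the 10 highest, and the role list; ZNF93 under the inhibitors, ZNF766, ZNF480 and other neighbours were added after their values were seen. KRAB domains were scored with a profile of 39 residues on translated GENCODE transcripts, and promoters came from RefSeq GRCh38.p14. Alternatives covered pseudocount, filter, centring, quantile normalization, limma voom, experiments alone, replicate block, GC trend within groups, membership threshold and each library left out.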

Additional observations from a re-analysis of the deposited data

Results flagged for a closer look

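For 59 named members in 5 groups, giving 295 combinations, 1 library stood apart from the others of its group in 25 (Dixon's test at the 95% level, which chance gives in about 1 of 20 groups). Of the 25, 11 were in DMSO replicate 1 of experiment 2, the library of steep GC slope. There ZNF160 stood at 16.48 RPKM (the other 3 libraries 10.9 to 11.8), ZNF253 at 40.29 RPKM (23.1 to 25.0), ZNF292 at 41.63 RPKM (21.3 to 24.3), ZNF326 at 17.21 RPKM (10.7 to 11.7), ZNF512 at 47.98 RPKM (37.6 to 38.3), ZNF528 at 15.75 RPKM (9.11 to 9.99) and ZNF610 at 5.198 RPKM (3.27 to 3.45). In the same library ZNF32 was low at 15.4 RPKM (21.2 to 22.3), ZNF343 at 2.539 RPKM (4.28 to 4.48), ZNF584 at 3.83 RPKM (5.29 to 5.44) and ZNF593 at 42.3 RPKM (55.9 to 58.6).

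In I-BET151 replicate 1 of experiment 2, also of steep GC slope, ZNF91 was high at 24.75 RPKM (8.80 to 10.4 in the other 3), ZNF326 at 18.02 RPKM (10.7 to 11.7), ZNF557 at 20.72 RPKM (12.8 to 13.6), ZNF397 at 4.2 RPKM (2.79 to 3.003) and ZNF302 at 1.205 RPKM (0 to 0.188). In untreated LOUCY replicate 2 of experiment 2, the third such library, ZNF143 was high at 19.56 RPKM (13.3 to 15.2 in the other 5) and ZNF274 low at 6.001 RPKM (8.81 to 10.4).

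The other 7 were spread over 6 libraries. ZNF684 was high at 8.744 RPKM in untreated LOUCY replicate 1 of experiment 2 (4.73 to 5.50), ZNF638 at 21.31 RPKM in JQ1 replicate 2 of experiment 1 (15.8 to 16.4) and ZNF687 at 4.991 RPKM in I-BET151 replicate 1 of experiment 1 (2.55 to 2.97). ZNF24 was low at 17.16 RPKM (18.5 to 18.6) and ZNF57 at 7.174 RPKM (7.85 to 7.96) in JQ1 replicate 1 of experiment 2. In JURKAT, ZNF528 stood at 0.2705 RPKM in replicate 2 of experiment 2 (0.0506 to 0.102) and ZNF217 at 3.594 RPKM in replicate 3 of experiment 2 (4.68 to 5.19).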

How the results depend on the processing

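No called difference of a named member reversed its direction under any alternative run. Members named for size had been picked to point the same way in each experiment, so fits to either experiment alone could not reverse them. The other runs reused the same libraries, which made a kept direction likely in advance. The balance of the members with JQ1 turned, with 28 higher and 26 lower without the 3 steep-slope libraries and 25 higher and 23 lower in experiment 1 alone, against 8 higher and 27 lower over all libraries, and the cause was not tested. All genes were also called more often without the steep-slope libraries, and their share in experiment 1 alone is not given here. Between untreated LOUCY and JURKAT, 24 of 31 calls of named members held under every alternative run. With JQ1 2 of 17 did (ZNF683 and ZNF485) and with I-BET151 3 of 17 (ZNF683, ZNF485 and ZNF771), and experiment 2 alone lost 15 and 14 of those calls. The counts moved by more than 1.5 times in these cases, where shares of all genes are not set beside them. Experiment 2 alone called 107 members between the lines, 2 with JQ1 and 4 with I-BET151, with fewer libraries. A membership threshold of 10 RPKM, which leaves fewer members, gave 58, 15 and 13. Members at 3 RPKM or more in both untreated lines, an alternative chosen after seeing the data, gave 117 between the lines. Removing the GC trend of each library around its group mean gave 53 with JQ1, 58 with I-BET151 and 1 between DMSO and untreated cells. That step narrows the spread within groups and leaves any GC shift between group means in place. Leaving out the 3 steep-slope libraries gave 54 with JQ1. Leaving out 1 library at a time gave 165 to 177 between the lines, 26 to 41 with JQ1, 27 to 41 with I-BET151, and 0 in the other 2 comparisons. Of 30 same-numbered pairs 10 correlated above 0.1 in their deviations (-0.60 to 0.70, the highest between DMSO and I-BET151 in experiment 2), so the numbers were not taken to pair the libraries. With the replicate block 171 members were called between the lines, 29 with JQ1, 34 with I-BET151 and 0 in the other 2. Depth limits chiefly the 12 members with a median under 50 reads.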
